A study of Mus musculus with 10 samples.

Results

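The regions described here are stretches of the mouse genome where HA-tagged SET was called by the authors' peak caller in both replicates of an overexpression line and in no library of the addback lines. Peaks of 8 libraries were merged wherever they shared at least 1 bp. A merged region was kept if it held peaks of both replicates of SETα overexpression, or of both replicates of SETβ overexpression, and no addback peak. The rule left out every chromosome other than the autosomes and a stretch of chromosome 6, and chromosomes 8 and 11 are not analysed here. On the 17 autosomes used, 581 regions remained of 48578 merged regions in all, or of 40331 outside the parts left out. The listed peaks themselves chose these regions, so their presence in overexpression lists and their absence from addback lists are the rule and not a finding, and are given without a test.

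KH2 mouse embryonic stem cells carry a site for 1 doxycycline-inducible transgene, and here the pBS31 transgene made HA-SETα or HA-SETβ. The overexpression lines (KH2 pBS31-HA-SETa and KH2 pBS31-HA-SETb) had no SET KO label, and the addback lines (KH2 SET-KO pBS31-HA-SETa and KH2 SET-KO pBS31-HA-SETb) lacked endogenous SET. All 4 groups received doxycycline at 1 µg/ml for 24 h, were crosslinked with 2 mM DSG for 45 min and then with 1% formaldehyde, and were precipitated with an HA antibody, with 2 replicates each. Each group is a line of its own and nothing in the labels says whether its replicates were separate cultures, so line and group cannot be told apart and p-values measure only the spread between these libraries. Another 2 samples, from SET KO cells kept without doxycycline, are not analysed here, and no value of these regions could be set against cells with the transgene off.

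SET is a histone chaperone that binds histones, shields their tails from acetylation and inhibits protein phosphatase 2A. SETα and SETβ are made from the same gene and differ at the amino terminus. A ChIP-seq peak marks where fragments recovered with the antibody pile up above a local background, and tandem copies of a sequence can gather reads from several copies at one listed position.

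Only 2 of the 581 regions touched a promoter window of the RefSeq table (GRCm38.p6), which runs from 250 bases before to 50 after a gene start and gave 32851 windows for 27025 genes. Both sequences are shown because these are the only regions that reach into such a window. Both regions stop short of the gene start itself, sharing only bases before it, and both belong to multicopy gene neighbourhoods described further on. Each is printed 5′ to 3′ on the strand of its gene, with capitals for the bases that lie inside the region. The first is the window of Duxf3, a double-homeobox gene of the Dux family, at chr10:58233040-58233339 on the minus strand, of which 193 bases are shared with the region chr10:58233147-58233532. The other is the window of Gm52805, a lncRNA gene among Speer genes, at chr5:14905855-14906154 on the plus strand, of which 35 bases are shared with the region chr5:14905412-14905889.
Duxf3: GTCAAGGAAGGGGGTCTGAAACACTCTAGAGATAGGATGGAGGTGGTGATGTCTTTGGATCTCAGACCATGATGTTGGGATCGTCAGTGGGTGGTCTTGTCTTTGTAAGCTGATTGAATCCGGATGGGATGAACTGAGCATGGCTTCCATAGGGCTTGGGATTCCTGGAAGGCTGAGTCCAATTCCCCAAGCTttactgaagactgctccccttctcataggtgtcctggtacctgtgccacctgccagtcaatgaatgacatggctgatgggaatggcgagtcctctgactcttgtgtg
Gm52805: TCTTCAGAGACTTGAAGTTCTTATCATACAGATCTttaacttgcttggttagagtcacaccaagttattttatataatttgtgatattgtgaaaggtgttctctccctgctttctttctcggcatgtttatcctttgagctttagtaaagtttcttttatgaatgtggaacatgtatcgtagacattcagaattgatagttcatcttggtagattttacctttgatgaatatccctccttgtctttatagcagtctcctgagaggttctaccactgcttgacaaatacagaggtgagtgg
The Duxf3 window had 51.0% G and C and 3 CG pairs, against a median of 52.7% and 7 pairs over all windows. The Gm52805 window had 36.3% G and C, a share at or below which only 5.33% of windows lay, and 2 CG pairs. The presence of 3 short promoter words was searched on both strands in each whole window. TATAAA was absent from the Duxf3 window and present 2 times on the reverse strand of the Gm52805 window, and 13.6% of all windows held it on either strand. The word CCAAT occurred 1 time in the Duxf3 window, on the forward strand and inside the capitals, was absent from the Gm52805 window, and was held by 37.4% of all windows. The Sp1-type word GGGCGG was in neither, against 35.7% of all windows. The addback regions, listed in both replicates of an addback line and in no overexpression library, touched a promoter window in 2079 of 4479 cases (46.4%). Regions listed in 1 overexpression library only, without an addback peak, did so in 1.44%. Of 65 regions listed in both replicates of an isoform in both backgrounds, 7.69% did so. The rule removed every region with an addback peak, and addback regions often touch promoters. The low share of the 581 regions, 0.34%, is therefore partly set by the rule. That share of the regions was 0.67% without SETα addback replicate 1, 0.55% without SETα overexpression replicate 1 and 1.67% without SETβ overexpression replicate 1.

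Most of these regions were narrow and weak. Their width ran from 207 to 4177 bp with a median of 386 bp, and 10 were wider than 1 kb. SETα overexpression alone chose 213, SETβ overexpression alone chose 238, and 130 were listed in all 4 overexpression libraries. A further 233 were listed in 3 libraries and 218 in 2. Replicate 1 of SETα overexpression listed 375 of the regions, with a median deposited −log10 p of 4.18. Replicate 2 listed 447 (4.70), SETβ overexpression replicate 1 listed 404 (4.14) and its replicate 2 listed 429 (4.70). Median fold enrichment over the local background lay between 2.81 and 3.04 in the 4 libraries, and the highest folds between 13.4 and 15.3. A −log10 q of at least 1.3 was reached by 79, 147, 45 and 115 of the listed regions in the same order, by 207 regions in at least 1 library and by 48 in every library that listed them. The authors' lists of peaks passing a comparison of replicates by irreproducible discovery rate (IDR) held 42 of the regions for SETα overexpression and 42 for SETβ overexpression, 21 of them in both and 63 in either.

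Absence from the addback lists depends on how strong a peak those lists would hold. On the same chromosomes the addback lists had 20754 and 14462 peaks for the SETα lines and 2265 and 9066 for the SETβ lines, against 1177, 2455, 1063 and 2431 in the overexpression lists. The 5th percentile of fold in the addback lists was 2.35 and 2.54 with SETα and 2.11 and 2.30 with SETβ, and between 479 and 567 of the 581 regions had a median fold at or above it. Folds of different lists rest on different local backgrounds, so this is a description of the lists and not a limit of detection. An addback peak lay within 1 kb of 107 regions (18.4%), within 10 kb of 204 (35.1%) and within 50 kb of 326 (56.1%), and the median distance was 34284 bp. Of all 889 regions listed in an overexpression pair on these chromosomes, 65.4% had no addback peak, 226 had exactly 1, and 308 had at least 1.

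Strength was concentrated in one place. The 3 strongest regions lay side by side on chromosome 10, close to the start of the assembled sequence, and ranked 1 to 3 in every overexpression library. The region chr10:3111237-3115413, the widest of all at 4177 bp, had a −log10 p of 59.8 and 55.9 with SETα and 49.7 and 55.9 with SETβ, and a fold of 13.4 to 15.2. Its neighbour chr10:3115961-3117252 had 54.7 and 61.1 with SETα and 46.0 and 50.9 with SETβ. The third, chr10:3109385-3110521, had 55.9, 49.7, 44.8 and 43.6 in the same order. The isoforms met in range at the first of the 3 and SETα was the higher at the other 2, and no addback peak was listed within 199518 bp of them. The nearest genes were the pseudogenes Gm3318 and Gm30674.

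The next strongest regions stood far below these. The region chr1:78573672-78574653 lies in Mogat1, which encodes a monoacylglycerol acyltransferase, and in the overlapping lncRNA gene Gm39665, and had a −log10 p of 13.1 and 14.9 with SETα and 11.4 and 13.98 with SETβ. The region chr10:31667794-31668118 lies 21378 bp from Nkain2, a gene for a partner of the sodium pump, and had 11.1 and 8.74 with SETα and 12.8 and 12.2 with SETβ. In the lncRNA gene Gm28905, chr10:9987197-9987436 had 11.8, 17.8, 10.2 and 14.9. Replicate 2 was the higher with both isoforms at Gm28905 and the SETα libraries were the lower at Nkain2, so no library led throughout. Thsd7a, which encodes a thrombospondin-type membrane protein, held chr6:12671712-12671971 with 13.3 and 11.3 for SETα and 10.2 and 15.3 for SETβ. Near Serpinb9f, a serine protease inhibitor gene, chr13:33318270-33318510 had 11.4, 11.01, 7.48 and 10.6. Muc3, a mucin gene, held the region chr5:137152167-137152525, which had 10.6 and 17.6 with SETα and was listed in neither SETβ library. The 10th, chr12:49532432-49532759, lay 33053 bp from the pseudogene Gm19599 and had 12.9 and 10.5 with SETα and 7.69 and 13.7 with SETβ. The plot of the 10 strongest regions shows the gap between the chromosome 10 group and the rest.

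At the weak end, the rule admitted regions close to the lowest −log10 p of any list, 2.30. The 3 weakest were chr4:146613295-146613646 (2.95 and 2.39 in the SETβ libraries) and chr4:146618734-146619164 (3.36 and 2.40 in the SETα libraries), both in the pseudogene LOC115486238, and chr4:58391255-58391586, which lies 13601 bp from Musk, the muscle receptor tyrosine kinase gene, and had 3.60 and 2.43 with SETβ. Just outside the rule stood regions with 1 addback peak. The strongest 3 of them, in each of which SETα addback replicate 1 gave that peak, lay near the pseudogene Gm5968 at chr18:22297535-22298323 (overexpression 10.6, addback 5.36), near the lncRNA gene Gm13974 at chr2:115161411-115162043 (8.99 and 4.77) and near the pseudogene Gm35781 at chr19:28155312-28155966 (8.74 and 4.12). Regions inside and outside the rule therefore overlapped in strength.

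Position relative to genes was not used by the rule directly. The rule removed regions with an addback peak, however, and addback regions lay mostly in or near genes. Contrasts with the addback regions are therefore partly set by the rule. Of the 581 regions, 289 (49.7%, Wilson 95% interval 45.7 to 53.8) had their strongest summit more than 50 kb from any protein-coding gene. The share was 38.8% for 2773 regions listed in 1 overexpression library only, 5.29% for the 4479 addback regions and 35.4% for 214013 positions on an even grid across the same chromosomes. The median distance to a protein-coding gene was 49475 bp for the regions, 0 bp for addback regions and 9757 bp for the grid. More than 500 kb separated 70 regions from any protein-coding gene, and more than 1 Mb separated 28. Intervals cover counting error only, and regions near each other are not independent.

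The share of regions inside genes was below the shares of addback regions and of the grid, and the share at gene ends was close to that of the grid, with no test over regions. The summit was inside a gene of any type in 210 cases (36.1%), against 40.2% of the single-library regions, 73.9% of the addback regions and 49.1% of the grid. It was inside a protein-coding gene in 154 (26.5%), against 31.6%, 68.1% and 40.5%. Within 1 kb of a gene end lay 35 regions (6.02%), against 11.5%, 66.2% and 6.22%. Of those 35, 20 belonged to clusters of 3 or more regions, and without such clusters the share was 2.78% of 539 regions. Without SETβ overexpression replicate 1 it was 11.9%. Regions listed in both replicates of an isoform in both backgrounds, of which there were 65, had 24.6% far from protein-coding genes and 21.5% at a gene end, between the regions and the addback regions. They lay inside a gene in 35.4% and inside a protein-coding gene in 26.2%, shares like those of the 581 regions.

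**Figure D1:**
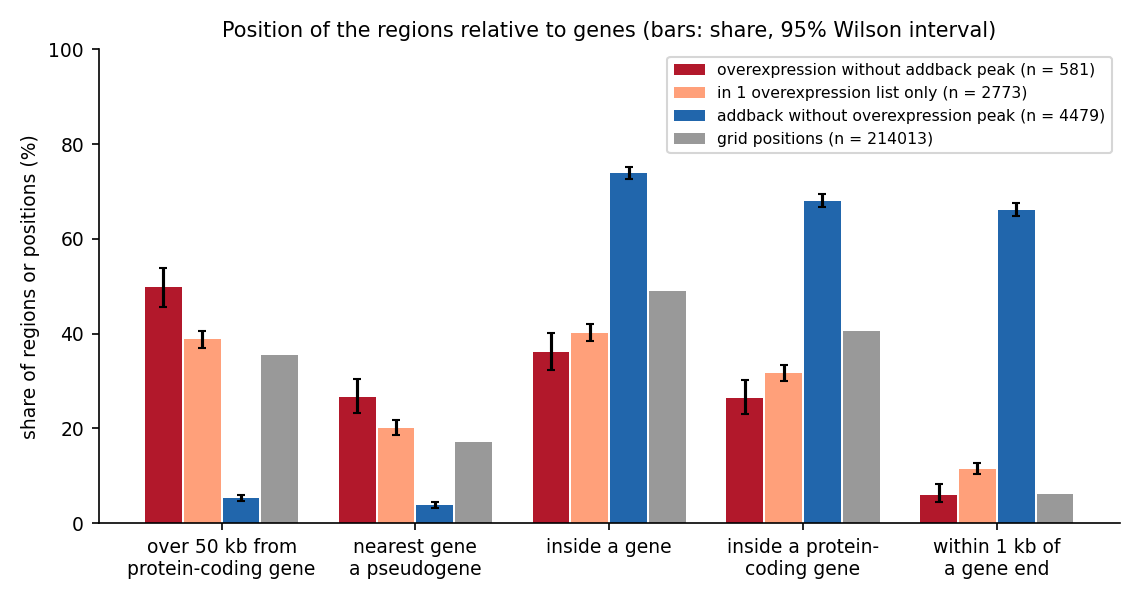
Share of regions or grid positions (y axis, %) in 5 categories of position relative to annotated genes (x axis), with error bars for the 95% Wilson interval. The regions (dark red) stand at 49.7% for distance over 50 kb from a protein-coding gene, where addback regions (blue) stand at 5.29%, and at 6.02% for gene ends, where addback regions stand at 66.2%.

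Some of the stronger regions lay inside protein-coding genes. Pcdh7, a protocadherin gene, held chr5:57861658-57861900 with a −log10 p of 6.76 and 8.23 for SETα and 8.23 and 9.77 for SETβ. Dpp10, a gene for a partner of potassium channels, held chr1:123857091-123857579 with 8.23, 8.99, 6.76 and 9.77 in the same order. Values with SETβ met or overlapped those with SETα at both genes. Rarb, a retinoic acid receptor gene, held chr14:17025620-17025962 with 5.59 and 5.95 for SETα and 7.63 and 9.87 for SETβ, without overlap. A830018L16Rik held chr1:11470195-11470663 with 7.48, 7.48, 7.48 and 4.12.

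Where a summit lay inside several genes, the gene whose symbol sorts first counted as the nearest. This bears on the shares by gene type and symbol, for the regions and for the sets beside them. Pseudogenes were the nearest gene of 155 regions (26.7%, 23.2 to 30.4). The share was 20.2% for the single-library regions, 3.80% for addback regions and 17.2% for the grid, while pseudogenes made up 20.8% of the 41574 genes annotated on these chromosomes. A protein-coding gene was nearest in 42.5%, against 51.5%, 82.0% and 55.0%, and a lncRNA gene in 23.2%, against 22.4%, 11.8% and 23.0%. Predicted genes with Gm symbols were nearest to 274 regions (47.2%), against 41.5%, 13.3% and 38.1% of the single-library regions, the addback regions and the grid, an order kept for the families that follow. Olfactory receptor genes (Olfr) were nearest to 12 regions (2.07%, against 1.12%, 0.11% and 1.12%), and vomeronasal receptor genes to 9, of which 5 were Vmn1r (0.86%, against 0.69%, 0.13% and 0.39%) and 4 Vmn2r (0.69%, against 0.72%, 0.25% and 0.50%). Genes for snoRNAs were nearest to 18 (3.10%, against 2.34%, 0.25% and 1.96%), for snRNAs to 17 (2.93%, against 2.34%, 0.42% and 1.71%) and for tRNAs to 5 (0.86%, against 0.36%, 0.63% and 0.15%). Genes with Speer symbols were nearest to 3 regions (0.52%, against 0.18%, 0% and 0.025%), all of them annotated as pseudogenes. Genes with Zfp symbols were nearest to 5 (0.86%, against 1.80%, 2.05% and 0.79%). Those with Rpl or Rps symbols were nearest to 2 (0.34%, against 0.54%, 0.89% and 0.47%), which include the pseudogene Rpl34-ps2. Families named by symbol were matched by symbol alone, so pseudogenes are counted in them. No region had a nearest gene of the Sp100, Mup, defensin, Pramef, Ugt, Krt, Usp17l, Zscan4 or Tdpoz families or an rRNA gene, each of which was nearest to at most 0.083% of grid positions, so that a count of 0 in 581 does not set the regions apart. The 581 regions had 514 different nearest genes, 46 of which were nearest to more than 1 region.

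Most regions stood alone. With clusters defined as runs of regions at most 50 kb apart, 473 regions had no neighbour, 33 clusters were pairs, and 8 clusters of 3 or more held 42 regions. In all, 108 regions (18.6%) were in a cluster. The addback regions gave 48.2% by the same measure, but there were 4479 of them, and a longer list brings neighbours closer, so the shares are not compared. Several of the larger clusters lay in tandem arrays of genes.

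The largest cluster lay in Snhg14, the long host transcript of snoRNAs in the imprinted Prader-Willi and Angelman region. It held 11 regions over 45410 bp (chr7:59736674-59782083), in a stretch with 18 snoRNA genes. A wider window around it held 40 snoRNA genes, with starts 2501 to 2549 bp apart, and the length of the whole array was not measured. The SETα overexpression pair chose 10 of the 11 and the SETβ pair 5, 4 of them shared. Strength was between 2.85 and 6.60, and the strongest, chr7:59743563-59743917, had a −log10 p of 7.56 and 6.60 with SETα and 3.92 and 6.52 with SETβ. The SETα overexpression libraries listed 16 and 11 peaks in the stretch, the SETβ overexpression libraries 7 and 5, and the 4 addback libraries 0. The summits lay between 185 and 2377 bp after the start of the snoRNA gene before them, with none between 911 and 1875 bp. Some distances nearly recurred, such as 185 and 187 bp or 2370 and 2377 bp. Whether the summits keep a place in the repeated unit was not tested. A further region outside this cluster also had Snhg14 as its nearest gene.

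The cluster with 9 regions lay in the Dux array at chr10:58221606-58239809, whose genes include Duxf3, LOC100504180 and the pseudogene Gm10807. Dux genes encode double-homeobox transcription factors known for switching on genes of the early cleavage embryo. All 9 regions were chosen by the SETα pair and 5 of them by the SETβ pair too. The strongest, chr10:58227788-58228588 in Gm10807, had a −log10 p of 13.7 and 9.12 with SETα and 3.45 and 6.95 with SETβ. In LOC100504180, chr10:58222900-58223454 had 8.08, 9.02, 5.69 and 6.08. In Duxf3, chr10:58229649-58230003 had 10.3 and 7.18 with SETα and 4.40 in 1 SETβ library. Values with SETα lay above those with SETβ at these 3 regions, without overlap. At chr10:58239117-58239809 in Gm9919 the order was different, with 4.20 and 3.45 for SETα and 11.4 and 2.66 for SETβ. The region that reaches the Duxf3 promoter window had 5.36 and 4.29 with SETα and 5.24 in 1 SETβ library. The array was not empty in the addback libraries. SETα addback libraries listed 4 peaks each between these regions and SETβ addback replicate 2 listed 2, and the nearest addback peak to the Duxf3 promoter region was 141 bp away.

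The 6 regions at chr5:14903353-15024445 lay around Gm52805, Speer8-ps1, Gm10354 and Gm17019, near Speer4e, in a neighbourhood of genes for glutamate-rich proteins of spermatogenesis. All were chosen by the SETα pair and 1 by the SETβ pair too. The strongest, chr5:14942114-14942535 near Speer8-ps1, had a −log10 p of 8.24 and 7.11 with SETα and 4.48 and 2.62 with SETβ. The 3 regions nearest to Gm52805 had 3.53 to 6.31 with SETα, and the one that touches its promoter window had 3.53 and 4.09, and 5.65 in SETβ replicate 2. The region in Gm10354 had 4.48 and 4.94, and the one near Gm17019 had 6.19 and 5.72, with SETα alone. No addback peak was listed in this stretch, and the closest to any of the 6 regions was 459189 bp away.

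Among the other large clusters, 4 regions stood in a row past the end of Cdkn1a, the gene for the p21 inhibitor of cyclin-dependent kinases, at chr17:29102834-29106849. The first had a −log10 p of 6.07 and 5.40 with SETα and 5.40 and 4.76 with SETβ, and the last had 4.14 in all 4 libraries. The second had 3.44 and 2.62 with SETα and 3.44 and 6.07 with SETβ, and the third was not listed in SETα replicate 2. No addback peak overlapped the stretch, but one lay 931 bp beyond the last region. In Cenpo, which encodes a centromere protein, 3 regions lay at chr12:4219440-4221668, with 2.47 to 5.53 over the 4 libraries. A cluster of 3 at chr4:146613295-146658235 lay in LOC115486238, inside the annotated span of Zfp993. The 3 regions at chr1:171069590-171085529 lay among 10 tRNA genes, in repeated units whose n-TEctc genes start 7614 to 7628 bp apart. The addback libraries listed 20 peaks between these 3 regions, at least 4 in each library, so the gaps that met the rule were short stretches beside peaks present in every library.

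**Figure D2:**
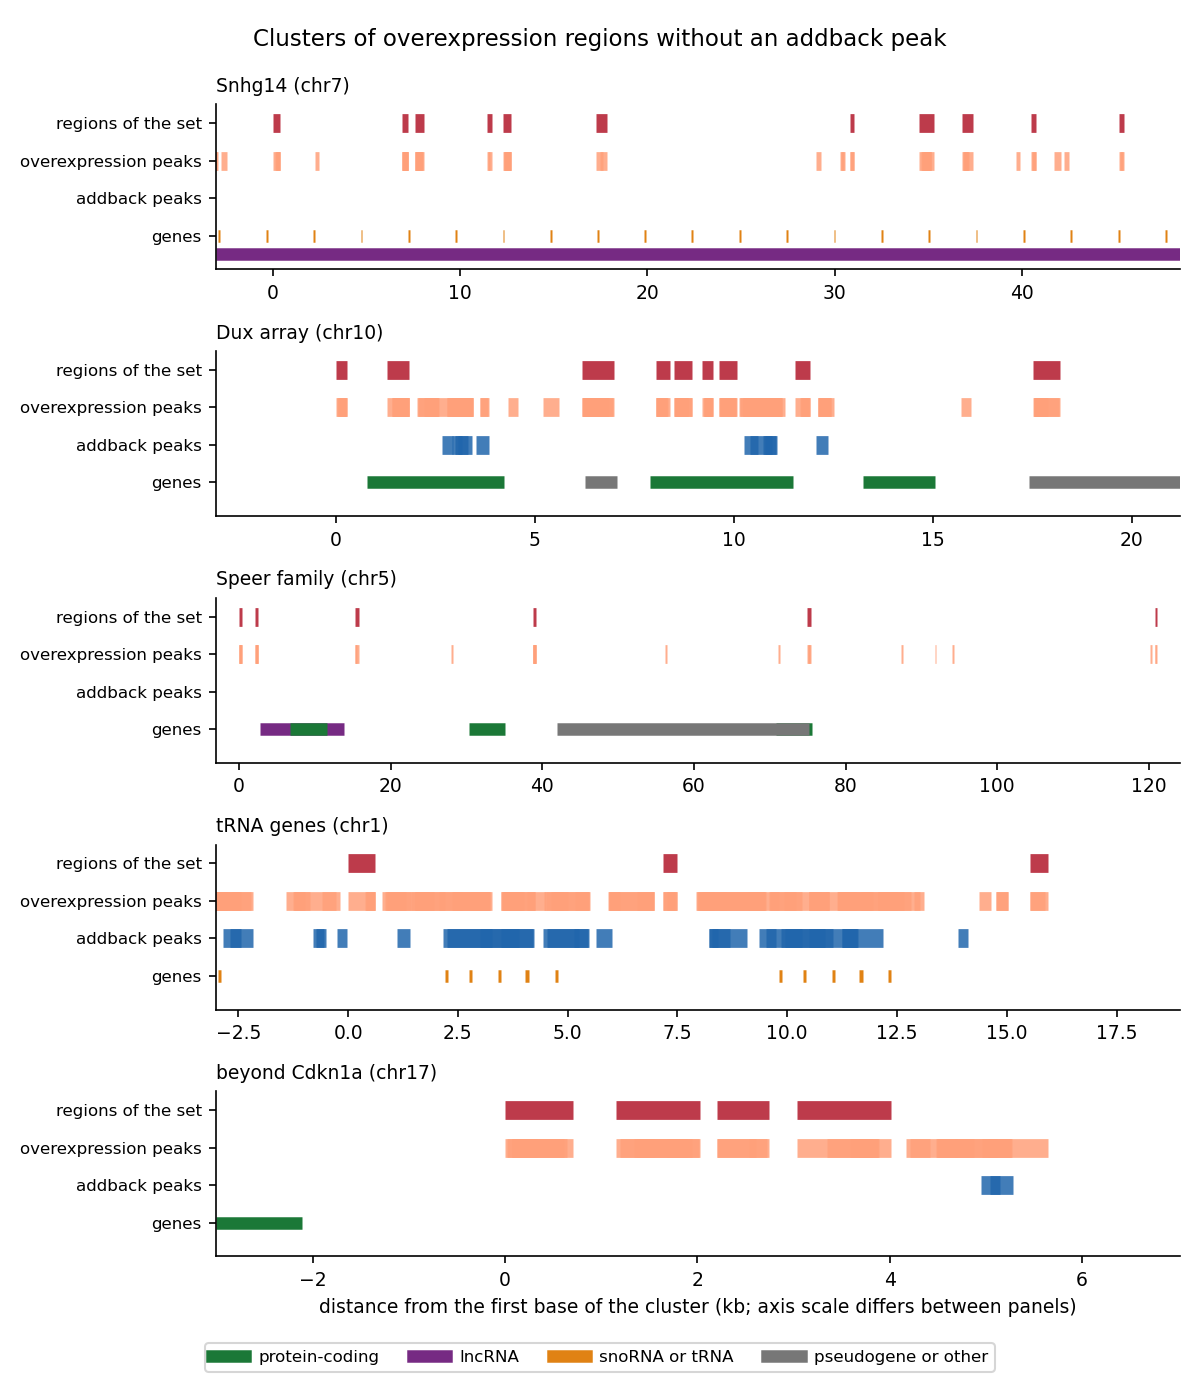
Maps of 5 clusters, with distance from the first base of the cluster in kb (x axis, a different scale in each panel) and rows for the regions, all overexpression peaks, all addback peaks and the annotated genes. The Snhg14 and Speer stretches have no addback peak, while addback peaks stand between the regions of the Dux array and of the tRNA genes.

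Regions at the ends of protein-coding genes numbered 12 (2.07%, against 8.04% of the single-library regions, 59.8% of addback regions and 2.95% of the grid), of which 6 belonged to clusters of 3 or more. The 10 strongest include regions at LOC100504180, Duxf3 and Gm10354 already described. Outside the arrays, chr4:129957572-129957930 lay 625 bp from Spocd1, a gene known for its part in silencing transposons in the male germ line, with a −log10 p of 7.29, 7.48, 5.95 and 8.72 in the 4 libraries. Others were at Zfp981, where the summit lies in the pseudogene Vmn2r-ps16 (chr4:146501230-146501659, 2.98, 5.36, 4.83 and 3.98), and at Gm13283 (chr4:88761065-88761330, 3.88 in both SETα libraries and 5.03 in 1 SETβ library). The regions at Spocd1 and Zfp981 were in all 4 libraries, with ranges of the isoforms that overlapped. Regions at histone genes of chromosome 13 were singled out after their values were seen. They were at H2bc14, in the annotated span of H2ac14 (4.70 and 5.40), at H2bc12 (3.56 and 3.56) and at H4bc24 (3.01 and 4.76), all in the SETβ libraries and in neither SETα library. The SETβ pair alone chose 238 of all 581 regions. A neighbour of the first, chr13:21767280-21767599, lay 763 bp from the lncRNA gene Gm11274 and was listed in the SETα libraries alone, with 4.14 and 4.76. Addback peaks lay 3422, 291 and 182 bp from the 3 histone gene regions.

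Wide regions were rare and of moderate strength outside chromosome 10. After the region near Gm3318, the widest were chr15:55872327-55873647 in Sntb1, a gene for a syntrophin of the muscle membrane complex (1321 bp), and chr7:136241602-136242909, 25539 bp from the lncRNA gene C030029H02Rik (1308 bp). The Sntb1 region had a −log10 p of 6.11 in SETα replicate 2 and of 4.33 and 5.16 with SETβ. The C030029H02Rik region had 4.35 and 4.12 with SETα and 5.31 in SETβ replicate 2. Neither was in all 4 libraries.

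All 17 autosomes analysed held some of the regions. There were 0.271 regions per Mb, against 2.09 addback regions per Mb. The highest densities were on chromosomes 10 (54 regions, 0.423 per Mb), 1 (69, 0.359) and 4 (53, 0.346), and the lowest on chromosomes 18 (14, 0.160), 19 (10, 0.172) and 9 (21, 0.173). The 54 on chromosome 10 include the 9 of the Dux cluster and the 3 near Gm3318 and Gm30674. Chromosomes 1 and 4 had 1 such cluster each, of 3 regions. Across the 17 chromosomes, Spearman's rho between regions per Mb and protein-coding genes per Mb was 0.05, and for addback regions it was 0.92. Both are descriptions across chromosomes of the same libraries.

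**Figure D3:**
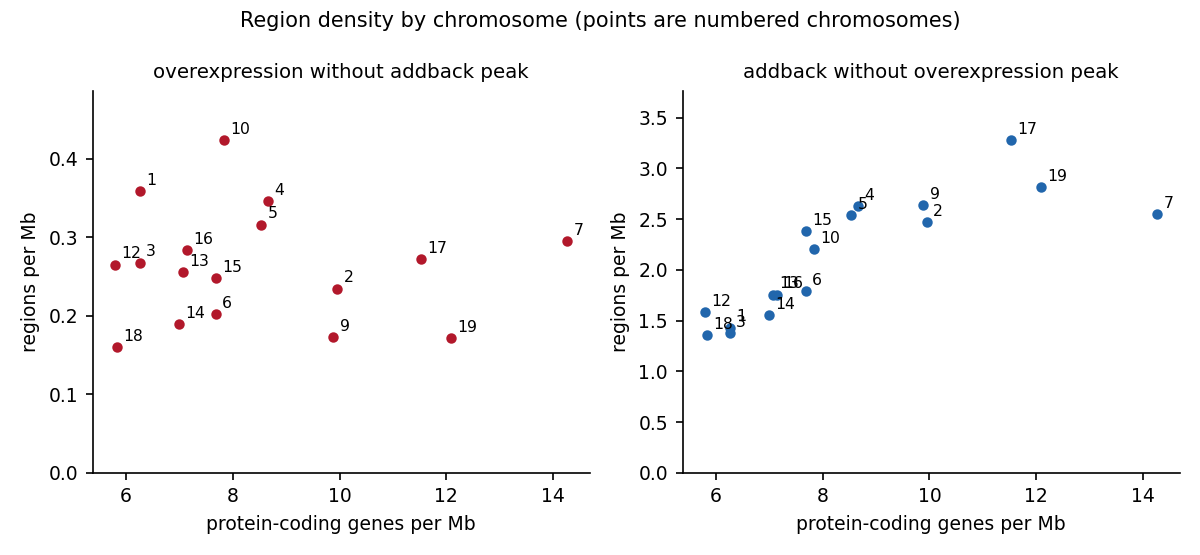
Protein-coding genes per Mb (x axis) and regions per Mb (y axis) on each of 17 numbered autosomes, for the overexpression regions without an addback peak (left, red) and the addback regions (right, blue). Chromosomes 10, 1 and 4 are highest on the left at 0.423, 0.359 and 0.346, and density on the right rises roughly with gene density, with chromosome 17 the highest.

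Along the chromosomes, 34 regions (5.85%, 4.22 to 8.07) lay within 10 Mb of coordinate 0, the centromere end of mouse chromosomes. The share was 5.92% for addback regions and 5.56% for the grid, both close to that of the regions. It was 10.4% of the 77 regions left when overexpression peaks needed a −log10 q of at least 1.3, a setting chosen after seeing the data for this share. With each chromosome's annotated span divided into 10 equal parts, the first held 11.7% of the regions, against 6.10% of addback regions and 7.94% of the grid. The fifth held the most, 14.1%, and the ninth the fewest, 6.20%. The last held 9.47%, against 15.4% of addback regions.

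The regions are next given by the isoform pair that chose them, as a description, since regions are not replicates of an isoform. A pseudogene was nearest for 26.8% of the 213 regions of the SETα pair alone, 27.3% of the 238 of the SETβ pair alone and 25.4% of the 130 of both. Distance over 50 kb from a protein-coding gene was found for 54.5%, 45.8% and 49.2%, and the median distance was 76055, 32274.5 and 46322.5 bp. Clusters of 3 or more held 8.92%, 2.52% and 13.1%, and most of the first share came from the Snhg14, Speer and Dux arrays. An addback peak lay within 1 kb of 14.1%, 24.8% and 13.8%. None of these differences was tested. IDR lists held 5.63%, 5.46% and 29.2%. The first 5 of the IDR-listed regions by strength were the pair near Gm3318 on chromosome 10 and those near or in Nkain2, Gm28905 and Thsd7a.

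Regions chosen by one isoform pair were looked up in the libraries of the other isoform. Those libraries took part in the merging of peaks, which can join and widen regions, so they are not independent of the choice and the shares are a description. Of the 343 regions chosen by the SETα pair, 166 (48.4%, 43.2 to 53.7) had a peak in SETβ overexpression replicate 1, where the background, from regions without an addback peak listed in exactly 1 SETα overexpression library, was 11.1% of 2076. In SETβ replicate 2 the count was 191 (55.7%), against a background of 18.5%. Of the 368 regions chosen by the SETβ pair, 162 (44.0%) had a peak in SETα replicate 1, against 12.0% of 1614 regions listed in exactly 1 SETβ overexpression library, and 234 (63.6%) in SETα replicate 2, against 21.3%. Chosen regions were thus listed with the other isoform 2.99 to 4.37 times as often as those background regions. They were also wider (median 372 and 416 bp, against 256 and 263 bp), and a wide region has more room for a peak. Below 400 bp the shares were 37.5%, 43.2%, 40.5% and 51.2%, against 6.71%, 11.9%, 9.27% and 15.2%, and the chosen regions were still the wider (median 303.5 against 244 bp for SETα and 322 against 249.5 bp for SETβ). Neither width nor peak strength was matched, and their part in these shares was not tested.

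The contrast between backgrounds was then measured over libraries rather than regions, with the strongest 1063 peaks of each library, the number in the shortest list, whether or not they met the rule. The libraries are those the rule read, but position was not directly part of it. The 1063 are the whole list of SETβ overexpression replicate 1 on these chromosomes. They are 1063 of 1177 peaks of SETα overexpression replicate 1, but of 20754 of SETα addback replicate 1. Weak peaks of short lists are thus set against the strongest peaks of long lists. Among these peaks the share over 50 kb from a protein-coding gene was between 41.1% and 48.2% in the 4 overexpression libraries and between 4.80% and 9.69% in the 4 addback libraries. The mean difference was 39.3 percentage points, with a spread between replicates of 2.48 (SD), and was 39.1 with SETα and 39.5 with SETβ. All 4 overexpression libraries lay above all 4 addback libraries. By an exact two-sided permutation test of background labels within each isoform, p was 0.0556 and the Benjamini-Hochberg adjusted p over 4 measures 0.111. The design cannot reach a p below 0.0556, its smallest value.

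A pseudogene was nearest for 21.5% to 25.2% of the strongest overexpression peaks and 3.57% to 15.0% of the strongest addback peaks. The difference was 17.3 percentage points (SD between replicates 4.25, exact permutation p = 0.0556, adjusted 0.111), and again the groups did not overlap. SETα addback replicate 1 stood apart from the other addback libraries at 15.0%, and the other 3 lay at or below 5.08%. Clustering depended on the gap used. Within 50 kb it did not separate the backgrounds, at 23.3% for overexpression and 21.3% for addback (exact permutation p = 0.389, adjusted 0.389). With a gap of 10 kb overexpression was the higher by 8.51 points, and with 200 kb the difference was −7.41 points, both with an exact permutation p of 0.0556 before adjustment. With all peaks of each list, which differ in number, it was −31.4 points. At 50 kb the sign differed between isoforms, with a difference of −2.40 points for SETα and 6.44 for SETβ. The share within 10 Mb of the chromosome start was 5.22% with overexpression and 6.56% with addback, a difference of −1.34 points (exact permutation p = 0.167, adjusted 0.222) against a spread between replicates of 1.04 (SD). With a window of 20 Mb it was 2.54 points, the other direction. A p above the threshold does not show that the backgrounds are alike in these measures.

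**Figure D4:**
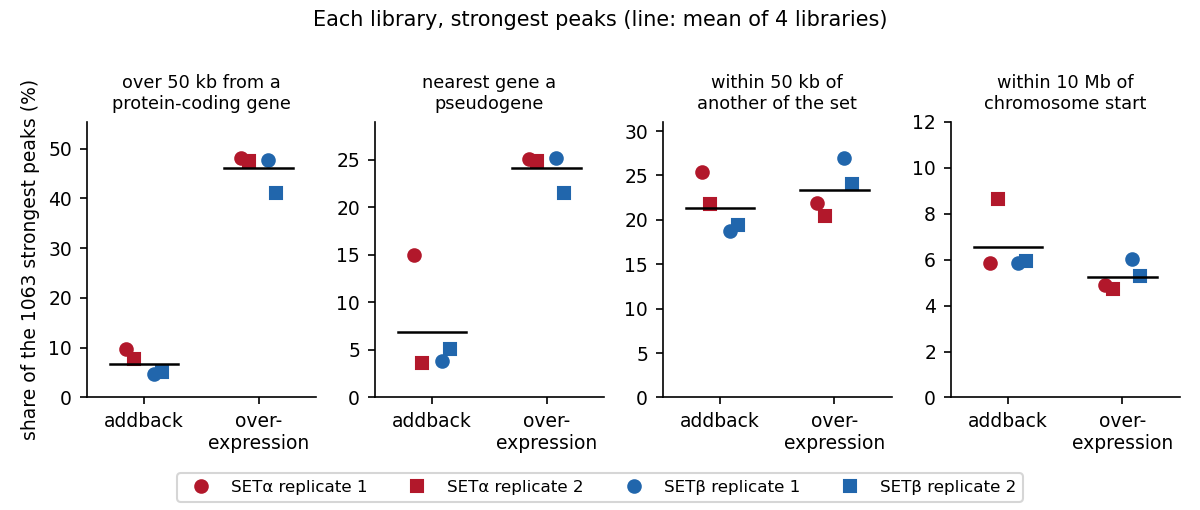
Share of the 1063 strongest peaks (y axis, %) in each of 8 libraries for 4 measures of position, one panel each with its own scale, with lines at the mean of 4 libraries. The overexpression points lie at 41.1% to 48.2% in the first panel, above all addback points, and the groups overlap in the clustering panel and in the chromosome start panel.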

How the data were processed

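HA ChIP-seq peaks of 8 libraries from mouse embryonic stem cells were used, 2 replicates in each of 4 groups. Reads were aligned and peaks called by the authors, and the submitters' processing notes name Bowtie2, MACS2, deepTools and the builds GRCm38 and mm10, without versions. The deposited fold is a linear ratio to the local background of the authors' peak caller, and each −log10 p and −log10 q was likewise deposited as that caller gave it, per library. Read totals were not used, so the depth is unknown.

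Peaks sharing at least 1 bp were merged, and the rule was applied after leaving out chromosome 6 from 118 to 136 Mb and non-autosomal chromosomes. Chromosomes 8 and 11 were not analysed here. The regions and lists were chosen with earlier results of these data known. Genes and promoter windows are from RefSeq tables of GRCm38.p6, without exons or introns, and 270 of 514 nearest genes had a window. Sequence composition of the regions was not computed, since no genome was used here. Positions are counted from 1.

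Strength is the smaller −log10 p of the choosing pair, the higher where both pairs chose. Named regions are the 10 strongest, the 3 widest, the 3 largest clusters, the 10 strongest at and inside protein-coding genes, the 3 weakest, the 3 strongest excluded by 1 addback peak, and 5 in the IDR lists. One named region is not reported here. Grid positions are 10 kb apart from 3 Mb on. Libraries were compared by exact two-sided permutation of background labels within isoform (36 arrangements), with Benjamini-Hochberg adjustment over 4 measures. The code was tested on simulated data. Python 3.11.15, pandas 2.3.3, numpy 2.4.6 and scipy 1.17.1 were used. Alternatives covered peak selection, windows, gaps, merging and each replicate left out.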

Additional observations from a re-analysis of the deposited data

Results flagged for a closer look

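Regions on chromosomes outside the rule also held overexpression peaks of both replicates and no addback peak. Chromosome X had 135 such regions (0.805 per Mb), of which 110 were listed in the SETα pair, 63 in the SETβ pair and 38 in both. Chromosome Y had 8 such regions. The stretch of chromosome 6 left out by the rule had 1290 (71.7 per Mb), of which 1285 were listed in the SETα pair, 10 in the SETβ pair and 5 in both. These parts of the genome entered alternatives of the count and, for chromosomes X and Y, of the library comparisons, and the difference between isoforms there was not tested. The counts were found with the rule itself and are given as a description.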

How the results depend on the processing

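The number of regions was 130 when all 4 overexpression libraries had to list them, 77 with only overexpression peaks of −log10 q at least 1.3 and 1871 with the chromosome 6 stretch kept. Leaving out 1 library gave 582 to 2001. It was 2001 without SETα overexpression replicate 1, 1101 without its replicate 2, 1801 without SETβ overexpression replicate 1 and 878 without its replicate 2, because 1 remaining library then meets the rule alone. The settings on q, on clusters and on width for the shares that follow were chosen after seeing the data. The share of regions in clusters was 11.5% in all 4 libraries, 9.09% with the q setting, 12.2% without clusters of 3 or more, and 18.6% to 30.8% with 1 library left out. With the q setting 10.4% lay near the chromosome start and 45.5% over 50 kb from protein-coding genes. With 1 library left out these shares were 5.20% to 6.15% and 39.3% to 50.7%, the pseudogene share was 20.2% to 27.0%, the gene-end share 5.47% to 11.9% and the promoter share 0.27% to 1.67%. The shares found with the other isoform below 400 bp were 37.5%, 43.2% and 51.2% where they moved most.

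Of the differences between backgrounds, the one near the chromosome start changed sign with a 20 Mb window (2.54 points), and the one in clustering with all peaks (−31.4) and with a 200 kb gap (−7.41), while a 10 kb gap gave 8.51. The cause was not tested. The differences for distance from protein-coding genes and for pseudogenes kept their sign in every alternative run. For distance the size depended on the cutoff, with 47.1 points at 10 kb and 23.0 points at 200 kb, against 39.3 at 50 kb. Without 1 library in turn the 4 differences were 37.6 to 41.0 (distance), 14.4 to 20.1 (pseudogenes), 1.11 to 2.94 (clustering) and −2.05 to −0.635 (chromosome start). With the replicate number kept as a replicate block, the differences stayed at 39.3, 17.3, 2.02 and −1.34, with exact permutation p of 0.125, 0.125, 0.625 and 0.25, of which 0.125 is the smallest possible. Same-numbered libraries did not deviate together (r from −0.04 to 0.065). With 2 replicates per group this cannot show whether same-numbered libraries were handled as pairs.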
